A study of Rattus norvegicus with 6 samples.

Results

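miR-204 and miR-211 are paralogous microRNAs, short RNAs that guide the silencing complex to matching sites in messenger RNAs. The family was taken by name from the deposited miRNA table, as every entry named rno-miR-204 or rno-miR-211 with an optional arm. This gave 3 of the 721 listed entries, namely rno-miR-204-5p, rno-miR-204-3p and rno-miR-211-5p (the prefix, for rat, is left out from here on), where 5p and 3p name the strands cut from the left and the right side of a hairpin precursor. miR-211-3p was not analysed here. The members were thus chosen by name, but the family itself was selected on the diabetic against normal values of these same libraries, which were known. Small RNA had been sequenced in 6 libraries from testicular tissue of adult male Sprague-Dawley rats, 3 libraries from rats with streptozotocin (STZ) induced diabetes, sampled at week 8, and 3 labelled normal. According to the study's methods, the diabetic rats had also been fed a high-fat diet before STZ, a toxin of the insulin-producing cells, controls were injected with citrate buffer, and rats counted as diabetic only with lasting high blood glucose. The diet of the controls was not given in the sources used here, so diet and STZ cannot be told apart. Nothing in the labels or methods states whether each library came from a separate animal.

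A microRNA recognises its targets mainly through its seed, bases 2 to 8 from the 5′ end, so paralogs with the same seed can bind the same sites. After the hairpin is cut, usually the guide strand is kept and the passenger strand is degraded. In mammals miR-204 and miR-211 lie within genes of the TRPM cation channels. miR-204 is known from the retinal pigment epithelium, the kidney and the pancreatic beta cell, where it lowers insulin production through the transcription factor MafA, and miR-211 is known from melanocytes.

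The mature sequences show how closely the measured members are related. They are RefSeq records on rat assembly GRCr8, and capitals mark the seed.

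miR-204-5p: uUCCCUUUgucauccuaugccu

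miR-211-5p: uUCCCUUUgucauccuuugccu

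miR-204-3p: gCUGGGAAggcaaagggacguu

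miR-204-5p and miR-211-5p were identical at 21 of 22 positions and shared their seed. The single substitution was A17U, counted from 1 at the 5′ end with the base of miR-204-5p first, so it lay outside the seed. How reads of such near-identical miRNAs were assigned was not given in the sources used here, and the split between the 2 is therefore uncertain. No other of the 693 mature rat sequences in the RefSeq table carried this seed. miR-204-3p has a seed of its own, and none of those sequences shared it. miR-204-3p also holds AAAGGGA, the reverse complement of the 5p seed, at positions 12 to 18. Searched on the strand of the mature RNA, this motif was found in 2 of the 693 sequences (0.289%), in miR-204-3p and miR-6326.

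The precursor hairpins place both arms in context, with the mature strands in capitals.

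Mir204: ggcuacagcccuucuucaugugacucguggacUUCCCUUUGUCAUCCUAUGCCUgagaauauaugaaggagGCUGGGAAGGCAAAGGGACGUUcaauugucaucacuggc

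Mir211: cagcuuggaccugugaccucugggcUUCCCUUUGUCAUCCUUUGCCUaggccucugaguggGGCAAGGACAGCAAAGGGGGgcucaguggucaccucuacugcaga

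Mir204 lies at chr1:229743461-229743570 and Mir211 at chr1:127189328-127189433, both on the plus strand of GRCr8. These positions come from RefSeq and not from the deposited table. In the RefSeq gene table Mir204 lay inside Trpm3 and Mir211 inside Trpm1, both protein-coding genes of TRPM channels. Exons and introns were not examined. Folded with RNAfold, 17 of the 22 bases of miR-204-5p paired with miR-204-3p, among them 7 of the 7 seed bases. In the Mir211 fold 18 of the 22 bases of miR-211-5p paired with the 3p strand. These are predicted structures and not measurements.

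Library totals ranged from 305476 to 549446 miRNA reads. Levels are given as CPM, counts scaled to a fixed library total and so the share of a miRNA in its library total, so each is relative to all other listed miRNAs. A level of 3 reads was taken as the floor of measurement, and it stood for 5.46 to 9.82 CPM. Pairs of replicates differed by more than counting noise, and all 6 libraries were kept. The labelled tissue was checked by the germ-cell list (miR-34b, miR-34c and miR-449, miRNAs of meiotic and later germ cells), which held 311960 to 333905 CPM in the diabetic and 307045 to 356042 CPM in the normal libraries. Whole tissue was sequenced, so a change in the number of cells of a type and a change in RNA per cell cannot be told apart.

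Because of how the family was selected, its values are given as a description with no test. Both strands of miR-204 were higher in the diabetic libraries, and miR-211-5p showed no separation. Groups did not overlap for 2 of the 3 members, against 14.9% of the 578 miRNAs that entered the fit over all miRNAs (7.96% with the diabetic libraries higher). Nothing is read from that count, which uses the values behind the choice.

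miR-204-5p, the guide strand by abundance, was at 1434, 1118 and 1391 CPM in diabetic replicates 1, 2 and 3. It was at 1068, 1076 and 922 CPM in normal replicates 1, 2 and 3. Every diabetic library was above every normal library, but diabetic replicate 2 stood only 42.2 CPM above the highest normal library. These levels came from 438, 416 and 764 reads against 471, 530 and 489 reads. The exact 95% Poisson interval of diabetic replicate 2, 1013 to 1231 CPM, overlapped that of normal replicate 2, 986 to 1172 CPM. The intervals of diabetic replicates 1 and 3 began at 1303 and 1294 CPM and lay above the interval of every normal library. Intervals and floors cover counting error only, since no molecular identifiers were described.

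The mean level of miR-204-5p was 1314 ± 171 CPM in diabetic and 1022 ± 86.3 CPM in normal testes (SD, n = 3 per group), a ratio of 1.29. On the log2(CPM + 1) scale the difference was 0.36 with a standard error of 0.13 from limma. Without each library in turn it stayed between 0.29 and 0.47, the highest without diabetic replicate 2. Of the 61 other miRNAs within 2-fold of its mean level, 2 had a higher log2 change and 59 a lower one, and their median was 0.04. For 16 of these 61 the groups did not overlap either, in one direction or the other. Over all 578 miRNAs, most of them scarcer and noisier, 132 had a higher change.

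miR-204-3p, the passenger strand by abundance, was at 19.6, 13.4 and 10.9 CPM in the diabetic libraries. In normal replicates 1, 2 and 3 it was at 2.3, 10.2 and 1.9 CPM. The groups did not overlap, but the lowest diabetic library lay 0.70 CPM above normal replicate 2, less than the 1.82 CPM that 1 read was worth in the deepest library. The diabetic values stood for 6, 5 and 6 reads and the normal values for 1, 5 and 1 reads. Normal replicates 1 and 3 were thus under the floor of 3 reads, and replicate 2 held as many reads as diabetic replicate 2.

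The mean of miR-204-3p was 14.6 ± 4.48 CPM in diabetic and 4.80 ± 4.68 CPM in normal testes (SD, n = 3 per group). The log2 difference was 1.68 with a standard error of 0.76, larger than that of the 5p strand but on 24 reads in all. Pooled over libraries, 17 diabetic against 7 normal reads gave a ratio of 2.90 per read sequenced, with an exact 95% counting interval from 1.14 to 8.26. This interval leaves out the spread between libraries. Among the 148 other miRNAs within 2-fold of its level, 7 had a higher log2 change and 141 a lower one. Their changes ran from -2.79 to 3.01, with a median of -0.05. Over all miRNAs tested, 4.67% combined a log2 change of at least 1 with an unadjusted p under 0.05 in limma. That share is background and no test of miR-204-3p.

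miR-211-5p, the paralog, was at 6.5, 5.4 and 12.7 CPM in diabetic replicates 1, 2 and 3, and at 4.5, 12.2 and 11.3 CPM in the normal ones. The groups overlapped, with low and high libraries in each. The reads behind these values were 2, 2 and 7 against 2, 6 and 6, so 3 of the 6 libraries were under the floor. Its mean was 8.20 ± 3.94 CPM in diabetic and 9.33 ± 4.21 CPM in normal testes (SD, n = 3 per group). The log2 difference was -0.15 with a standard error of 0.71, and it turned to 0.07, 0.08 and 0.03 without diabetic replicate 2, normal replicate 2 and normal replicate 3. Pooled, 11 diabetic and 14 normal reads gave a ratio of 0.94 with an exact 95% counting interval from 0.39 to 2.22. A change of miR-211-5p of the size seen for miR-204-5p was not detectable at this depth.

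**Figure D1:**
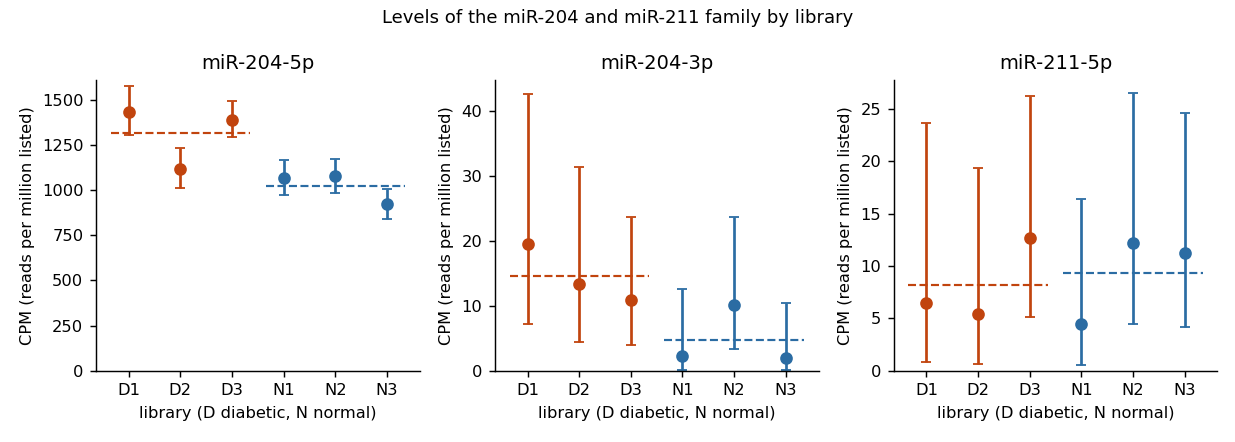
Levels in CPM (y axis, from 0) of miR-204-5p, miR-204-3p and miR-211-5p in each library (D1 to D3 diabetic, N1 to N3 normal), with exact 95% Poisson intervals as bars and group means as dashed lines. The 5p strand of miR-204 lay between 1118 and 1434 CPM in the diabetic and between 922 and 1076 CPM in the normal libraries, while the intervals of the other members are wide and overlap.

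In order of level, miR-204-5p came first and ranked between 66th and 85th of the 721 entries in single libraries. miR-204-3p and miR-211-5p followed far below, at places 377 and 391 by mean CPM. All 3 members are 22 bases long, but whether their strands were captured equally well was not tested. The order is therefore one of reads and not of molecules. The lower 2 did not differ beyond their spread: diabetic libraries held 10.9 to 19.6 CPM of miR-204-3p and 5.4 to 12.7 CPM of miR-211-5p, and normal libraries 1.9 to 10.2 and 4.5 to 12.2 CPM. The nearest known miRNAs above miR-204-5p in mean level were miR-375-3p, miR-532-5p and miR-27a-3p, and those below were miR-19b-3p, miR-32-5p and miR-883-3p. Their log2 changes ran from -0.18 to 0.19, and the groups of miR-532-5p alone did not overlap. Around miR-204-3p the nearest were miR-1298, miR-329-5p, miR-376b-5p, miR-323-3p, miR-212-3p and miR-329-3p, with changes from -1.09 to 0.76. Around miR-211-5p they were miR-3589, miR-674-5p, miR-6324, miR-15a-5p, miR-3473 and miR-33-3p, with changes from -1.35 to 1.58.

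**Figure D2:**
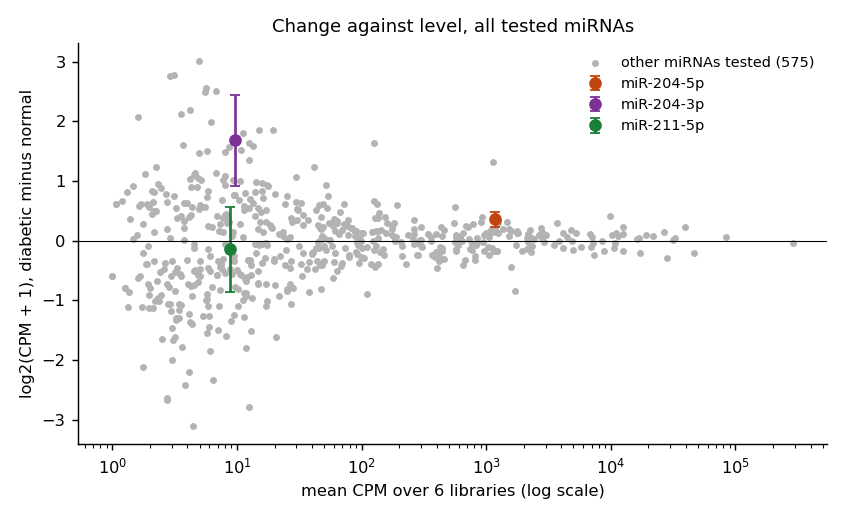
Difference of log2(CPM + 1), diabetic minus normal (y axis), against mean CPM over the 6 libraries (x axis, log scale) for the 578 miRNAs in the fit, with standard errors from limma for the 3 family members. miR-204-5p, at 0.36, sits near the upper edge of miRNAs of its abundance, and miR-204-3p, at 1.68, sits in the region where scarce miRNAs scatter widely.

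The balance of the arms compares strands of the same hairpin within a library and does not depend on the library total. miR-204-3p made up 1.35%, 1.19% and 0.779% of miR-204 reads in diabetic replicates 1, 2 and 3. In the normal libraries it made up 0.212%, 0.935% and 0.204%. Normal replicate 2 lay above diabetic replicate 3, so the groups overlapped. The exact 95% Clopper-Pearson intervals of the 6 libraries overlapped as well, for example 0.497% to 2.92% in diabetic replicate 1 and 0.00536% to 1.17% in normal replicate 1. The mean share was 1.11% ± 0.295 in diabetic and 0.450% ± 0.420 in normal testes (SD, n = 3 per group), a difference of 0.656 percentage points. With both strands summed, miR-204 was at 1329 ± 173 and 1027 ± 89.1 CPM (SD, n = 3 per group), a log2 difference of 0.37, close to that of the 5p strand alone.

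Other hairpins give a measure of how far such balances moved. Both arms were listed for 178 known miRNAs, and for 125 of them the summed arms had at least 10 reads in every library. On the scale of the log2 ratio of 3p to 5p, with 0.5 read added to each, miR-204 differed by 1.35 between groups. Of the 125, 3 had a larger change, and 8 had a change of larger size in either direction. All 125 ran from -2.50 to 2.72 with a median of -0.04. Of 22 hairpins whose minor strand had within 2-fold of the 24 reads of miR-204-3p, itself included, 3 had a change of larger size. Both strands had a positive difference, as for miR-204, in 40 of the 125 hairpins and a negative one in 27. The minor strand of miR-204 averaged 0.778% of its reads, below the median of 2.33%.

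The share of the paralog among reads with the common 5p seed was small in every library. miR-211-5p took 0.455%, 0.478% and 0.908% of these reads in the diabetic and 0.423%, 1.12% and 1.21% in the normal libraries. miR-204-5p thus had 81.5 to 236 times as many reads. The reads of miR-211-5p were too few to show whether its level followed that of miR-204-5p. Normal replicate 3, lowest in miR-204-5p, held 6 reads of miR-211-5p, and diabetic replicate 1, highest in miR-204-5p, held 2. Whether misassigned miR-204-5p reads contributed to miR-211-5p was not tested.

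**Figure D3:**
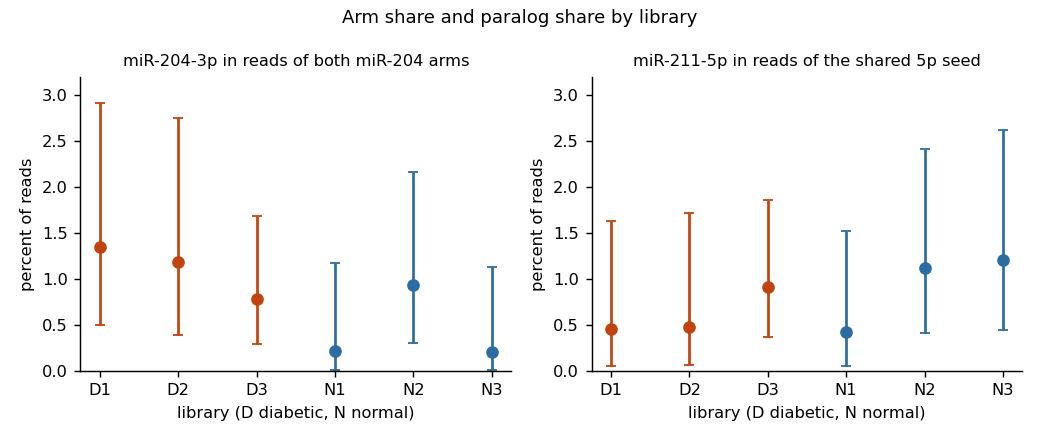
Percent of miR-204 reads that came from the 3p strand (left) and percent of reads with the shared 5p seed that were assigned to miR-211-5p (right), for each library (D1 to D3 diabetic, N1 to N3 normal), with exact 95% Clopper-Pearson intervals. The 3p share ran from 0.204% to 1.35% and the miR-211-5p share from 0.423% to 1.21%, with overlapping groups in both.

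The pattern of each member over the 6 libraries was set beside those of 226 known miRNAs that reached 10 reads in all 6 libraries, by Pearson correlation of log2(CPM + 1). The points share their library totals and the difference between groups, so these values are descriptions. The pattern most like that of miR-204-5p was that of miR-743b-5p (r = 0.996), followed by miR-128-3p (r = 0.993) and miR-363-3p (r = 0.974). For comparison, the middle range of the 226 correlations, between quartiles, was -0.30 to 0.51. After each group's mean was removed, the correlations of these 3 were 0.990, 0.988 and 0.931, values that are high in part because the 3 were picked from the same libraries.

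miR-743b-5p was at 3146, 2685 and 3103 CPM in diabetic and 2597, 2686 and 2396 CPM in normal libraries, each in the order of replicates 1, 2 and 3. miR-128-3p, a miRNA best known from brain, was at 753, 505 and 755 CPM against 503, 487 and 364 CPM. In both, as in miR-204-5p, diabetic replicate 2 was lower than the other diabetic libraries and normal replicate 3 was the lowest of all. The least like were miR-106b-5p (r = -0.96), a member of the miR-17 family, and miR-542-3p (r = -0.94), both with lower levels in each diabetic than in each normal library. miR-106b-5p was at 341, 409 and 379 CPM in diabetic against 428, 432 and 506 CPM in normal testes.

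Within the family, the correlation of miR-204-5p was 0.77 with miR-204-3p and -0.03 with miR-211-5p, and 23 of the 226 miRNAs stood above the 3p strand in likeness. With group means removed the strands of miR-204 correlated at 0.39. On 1 to 6 reads per library this is a weak measure. The patterns most like miR-204-3p were those of miR-340-3p (r = 0.953), miR-191a-5p (r = 0.948) and miR-434-3p (r = 0.929), and the least like were miR-215 (r = -0.94) and miR-542-3p (r = -0.87). For miR-211-5p the most like were miR-465-5p, miR-883-5p and miR-140-5p and the least like miR-92b-3p and miR-511-3p. The 3 lists of most like miRNAs had no name in common.

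**Figure D4:**
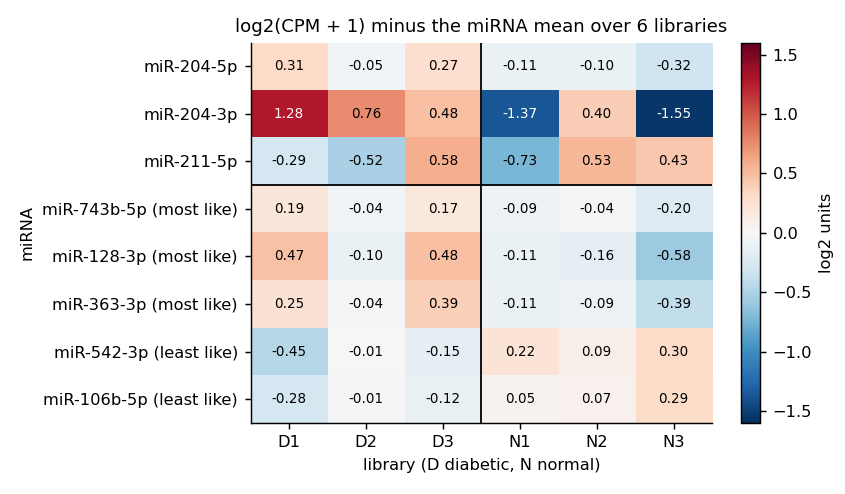
Deviation of log2(CPM + 1) from the mean of each miRNA over the 6 libraries, as colour and printed value, for the 3 family members (top) and for the 3 miRNAs most like and the 2 least like miR-204-5p (bottom); columns are libraries, D1 to D3 diabetic and N1 to N3 normal. miR-743b-5p, miR-128-3p and miR-363-3p follow the order of miR-204-5p closely, and the row of miR-211-5p, on 2 to 7 reads, has its highs and lows in other libraries.

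miR-204 is best known in glucose control from the pancreatic islet, so other miRNAs known from islets were followed through the same fit. Of 13 listed islet miRNAs tested, 1 was higher at an unadjusted p under 0.05 and 0 were lower, against 8.82% of all 578 miRNAs in either direction, 5.54% higher and 3.29% lower. After Benjamini-Hochberg adjustment 0 islet miRNAs passed in limma, and 0 of all 578, against 51 at an unadjusted p under 0.05, 1 adjusted call by DESeq2 and 2 by edgeR. The differences of 12 of them were positive and 1 was negative, with a median of 0.19. Over all 578 miRNAs 292 were positive, with a median of 0.0046. Nothing is read from this count of signs, since the list was chosen with earlier results of these data known. It also counts strands of the same miRNA as separate members, for miR-7a, miR-9a and miR-124. The list's summed level was 6820 to 7776 CPM in diabetic and 6297 to 6772 CPM in normal libraries, most of it miR-7a-5p.

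The islet miRNA that passed was miR-7a-2-3p, a passenger strand of the endocrine miRNA miR-7a, with 5, 10 and 9 reads in diabetic and 5, 1 and 4 reads in normal replicates 1, 2 and 3. The log2 difference reached 1.58 (standard error 0.69, limma adjusted p = 0.492). The unadjusted call was lost in 7 of 17 alternatives, and the adjusted p ran from 0.455 to 0.839 over them. miR-7a-5p, the guide strand, was at 5055 ± 334 CPM against 4450 ± 140 CPM (SD, n = 3 per group) with a log2 difference of 0.18 (limma adjusted p = 0.591). miR-375-3p, the most typical islet miRNA, was at 1242 ± 125 against 1106 ± 252 CPM (SD, n = 3 per group; limma adjusted p = 0.795), and miR-9a-5p at 595 ± 186 against 574 ± 131 CPM (SD, n = 3 per group; limma adjusted p = 0.962).

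Markers of other cell types were measured in the same libraries. Of 30 marker miRNAs tested in 8 lists, 3 were higher and 3 lower at an unadjusted p under 0.05, against 5.54% higher and 3.29% lower (8.82% in all) among the 578, and 0 passed after adjustment in limma. The endothelial list (miR-126a, both strands) had both members higher in value and 1 of 2 passing. Its sum was 11722 to 13783 CPM in diabetic and 8662 to 11086 CPM in normal libraries, without overlap. miR-126a-3p, an endothelial miRNA, was at 11211 ± 1153 CPM against 8471 ± 1329 CPM (SD, n = 3 per group). On the log2 scale this was 0.41 higher (standard error 0.11, limma adjusted p = 0.348, ranging from 0.0461 to 0.756 over 18 alternatives). Its unadjusted p stayed under 0.05 in all but eBayes without the trend.

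The list for gonadal somatic and Sertoli cells (miR-202) also differed without overlap, at 4102 to 4467 CPM in diabetic and 3262 to 3693 CPM in normal libraries, with 1 of 2 members passing. miR-202-5p, a gonad-specific miRNA, was at 4107 ± 188 against 3340 ± 236 CPM (SD, n = 3 per group), or 0.30 higher on the log2 scale (standard error 0.10, limma adjusted p = 0.348, ranging from 0.302 to 0.803 over 18 alternatives). Its unadjusted call was lost with upper-quartile factors and with eBayes without the trend. The other member, miR-202-3p, was lower in value, at 130 ± 12.7 against 150 ± 28.9 CPM (SD, n = 3 per group). Its groups overlapped, with a log2 difference of -0.18 (standard error 0.23). Most of the list's sum was miR-202-5p, so the sum mainly follows that strand. The hepatocyte list, which rests on miR-122-5p alone, was lower, at 936 to 1372 CPM against 1839 to 2786 CPM. Its limma adjusted p was 0.0907, and over 18 alternatives the adjusted p ranged from 0.000162 to 0.526. Which cells miR-122-5p came from in these testis libraries was not tested. Among leukocyte miRNAs 1 of 4 passed and was lower, namely miR-142-3p, a miRNA of blood cells (limma adjusted p = 0.348, ranging from 0.302 to 0.726 over 18 alternatives). This call was lost without diabetic replicate 2, without normal replicate 2 and with eBayes without the trend. The leukocyte sum ran from 495 to 652 CPM in diabetic and from 592 to 762 CPM in normal libraries.

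Of 6 miRNAs of duct epithelium, miR-200c-3p was higher (limma adjusted p = 0.492, ranging from 0.46 to 0.839 over 17 alternatives), a call lost in 11 of them. It had 8, 8 and 5 reads in diabetic and 1, 2 and 6 reads in normal replicates 1, 2 and 3. Its groups overlapped, and normal replicates 1 and 2 were under the floor of 3 reads. miR-205 was lower (limma adjusted p = 0.348, ranging from 0.321 to 0.771 over 17 alternatives), a call lost with thinned reads and without normal replicate 1. Its reads were 2, 4 and 5 in diabetic and 24, 12 and 9 in normal replicates 1, 2 and 3. The summed epithelial level overlapped, at 102 to 141 CPM in diabetic and 127 to 156 CPM in normal libraries. Members of the germ-cell, smooth muscle and peritubular and erythrocyte lists passed in 0 of 7, 0 of 4 and 0 of 4 cases. Their sums overlapped, with 85959 to 96015 against 79267 to 97409 CPM for smooth muscle and peritubular cells and 544 to 782 against 678 to 741 CPM for erythrocytes. No marker was at 0 in every library. Whether the cells behind the lists whose sums did not overlap between groups had a part in the difference of miR-204-5p was not tested.

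**Figure D5:**
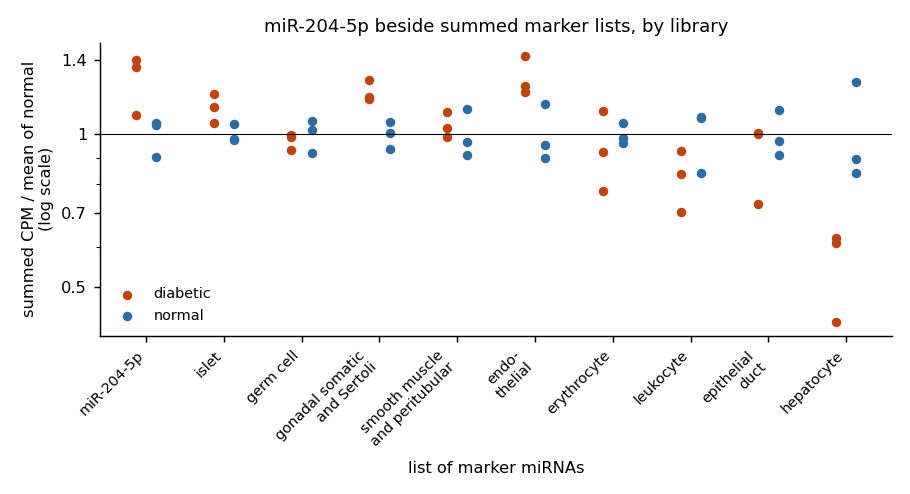
Level of miR-204-5p and summed CPM of each marker list in each library, divided by the mean of the normal libraries (y axis, log scale), with 3 diabetic and 3 normal libraries per column. As for miR-204-5p, the 3 diabetic libraries lie above the 3 normal ones for the islet, gonadal somatic and endothelial lists, and they lie below for the hepatocyte list. Most of the islet sum is miR-7a-5p, of the gonadal somatic sum miR-202-5p and of the endothelial sum miR-126a-3p.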

How the data were processed

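Small RNA reads of 6 rat testis libraries, 3 diabetic and 3 normal by their titles, had been processed by the authors. According to the study's methods, reads were single-ended and trimmed, known miRNAs were annotated by miRBase, and levels were expressed as CPM. The submitters' processing notes name Bowtie 0.12.2, HISAT2 2.0, StringTie 1.3.0 and mm8, a mouse build, without saying what each was used for. The labels' extraction text describes a poly(A) library, whereas the series and the methods describe miRNA sequencing, which was followed. The deposited CPM values, headed TPM, were rounded by the authors to 1 decimal. Whole reads were recovered for 100% of values within 0.05 CPM, and edgeR on them called 55 miRNAs at an unadjusted and 2 at an adjusted p under 0.05.

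The fit over all miRNAs was limma 3.58.1 (eBayes with a mean-variance trend, R 4.3.3) on log2(CPM + 1), for the 578 miRNAs that reached 1 CPM in 3 or more libraries, two-sided, without covariates, with Benjamini-Hochberg adjustment. The family and the lists were chosen with earlier results of these data known, so no p is given for the family. P-values measure the spread between libraries, which may be technical. Named miRNAs were the family, for each member the 3 most like and 2 least like patterns and the 3 neighbours in level on each side, and list members with an unadjusted p under 0.05 or among the most abundant. miR-204 and miR-211 sequences came from RefSeq (GRCr8), where 492 of 539 known miRNAs matched by name, and hairpins were folded with RNAfold 2.7.2. Alternatives were another pseudocount (0.1), other scalings, thinned reads, other filters, eBayes without the trend, a replicate block, DESeq2 1.42.0 and edgeR 4.0.16 on the recovered reads, and leaving out each library. Those for miR-211-5p were added after the table had been seen.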

Additional observations from a re-analysis of the deposited data

How the results depend on the processing

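The log2 differences of miR-204-5p and miR-204-3p stayed positive in all 15 alternatives each, at 0.25 to 0.47 and 1.16 to 2.30. Their groups did not overlap, so leaving out a library, the smaller pseudocount and the replicate block could not turn these signs. Both strands summed also did not overlap between groups and stayed at 0.26 to 0.48. The 3p share stayed 0.468 to 0.898 percentage points higher. Upper-quartile factors shifted the median of all miRNAs to -0.10, and relative to it miR-204-5p was at 0.35. miR-211-5p turned to 0.67 with reads thinned to the smallest library, and ran from -0.55 to 0.080 without single libraries (0.080 without normal replicate 2, 0.07 without diabetic replicate 2 and 0.03 without normal replicate 3). The cause was not tested.

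In limma 0 miRNAs had an adjusted p under 0.05 and 51 an unadjusted one. The adjusted count was 1 with TMM factors, upper-quartile factors, the replicate block, no filter, a minimum of 10 reads per library and the DESeq2 Wald test, 2 with edgeR and 8 with eBayes without the trend. It ran from 0 to 2 without single libraries, being 1 without diabetic replicate 1, diabetic replicate 3 or normal replicate 3 and 2 without normal replicate 2. The unadjusted count was 25 with that minimum, which tests 257 miRNAs, and 38 to 51 without single libraries. The 27 miRNAs past a log2 change of 1 and an unadjusted p under 0.05 became 1 with that minimum, 11 with DESeq2 and 17 to 30 without single libraries, the fewest without normal replicate 3. Of unadjusted calls 32 were higher and 19 lower, against 30 and 29 with DESeq2 size factors, 29 and 31 with TMM factors and 16 and 41 with upper-quartile factors. For the 27 the split was 17 and 10, against 13 and 13 with upper-quartile factors. Leaving out a library turned it to 10 and 12 without diabetic replicate 1, 6 and 13 without diabetic replicate 2 and 13 and 17 without diabetic replicate 3, while it was 13 and 6, 13 and 5 and 14 and 3 without normal replicates 1, 2 and 3. The islet call became 0 with thinned reads, the replicate block, DESeq2, edgeR and the minimum of 10 reads, and was 0 or 1 without single libraries, 0 without diabetic replicate 2, diabetic replicate 3 or normal replicate 2. The 6 marker calls became 3 with eBayes without the trend and 4 to 6 without single libraries. What caused these changes was not tested.

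Same-numbered libraries shared only a number. Correlations of their deviations from group means were 0.0065, -0.0688 and -0.0894 over 257 miRNAs, and no library was closest to its own number. The replicate block gave 44 unadjusted and 1 adjusted call. Each number occurs in both groups, so the block could not change the family's differences of 0.36, 1.68 and -0.15. Depth limits miR-204-3p and miR-211-5p, with at most 7 reads in any library.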
